A study of Drosophila melanogaster with 12 samples.

Results

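Sterile OvoD1 females were compared with fertile wildtype females of Drosophila melanogaster, both with intact corpora allata, the paired glands beside the brain that make juvenile hormone. The comparison took the 3 Affymetrix Drosophila 2.0 arrays labelled as the ovoD mutant and the 3 labelled wildtype, out of 12 arrays of 4 genotypes, and all probe sets annotated to 1 gene. Of 11982 genes with such a probe set, 9968 passed the filter on low values and were tested. The other 6 arrays were of females without corpora allata, 3 fertile (CAKO) and 3 sterile (CAKO;OvoD1), and served as a second, separate comparison of sterile with fertile females. The paper reports that CAKO females lay far fewer eggs than controls, so fertile means here only that OvoD1 is absent. Each array carried RNA of 25 pooled whole females, aged 15 days by the labels and 14 days by the growth protocol, from 4 cages per genotype of 125 females each. OvoD1 is a dominant X-linked allele of ovo, kept in a stock with a compound X chromosome marked y1 w1 f1 and backcrossed into w1118. The sources gave the wildtype background both as wDAH alone and as a mix of wDah and w1118, and the OvoD1 background as a mix, so background and OvoD1 cannot be told apart here. All values are log2 expression after GC-RMA, whose background correction leaves a floor at 2.13.

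An ovary holds many ovarioles, and an ovariole is a chain of egg chambers of rising age. In each, germ line nurse cells copy their genomes many times and fill the oocyte with RNA and protein, while a layer of somatic follicle cells patterns the egg, makes part of the yolk and then secretes the vitelline membrane and the chorion, the inner and outer eggshell. Ovo is a zinc finger transcription factor of the female germ line, and OvoD1 makes a form of it that stops egg chambers early, so OvoD1 females keep small ovaries and lay no eggs. In a fly pooled whole, the ovary is a large share of the RNA of a fertile female and a small share of that of a sterile one. Fewer cells of a type and less RNA per cell cannot be told apart in such samples.

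The level of ovo set each of the 3 OvoD1 arrays apart from the wildtype arrays. It checked only the sterile part of the label, because the CAKO;OvoD1 arrays lay close, at 8.07, 8.07 and 7.97. The values of ovo were 12.28, 12.21 and 12.37 on the wildtype arrays and 8.22, 8.32 and 8.13 on the OvoD1 arrays, a fall of 4.06 (SE 0.06) on the log2 scale that left ovo well above the floor. Between 35.7% and 38.3% of all probe sets had the floor value itself on each of the 12 arrays. The authors' quantile normalization gave all arrays the same distribution of signal, so each value is relative to the other RNAs of its array. The median value of 41 genes of muscle and photoreceptors, 2 cell types outside the ovary, was 9.63, 9.76 and 9.83 on the wildtype arrays and 10.57, 10.70 and 10.68 on the OvoD1 arrays. That difference of 0.91 is used below as a somatic reference, with the median over 26 neuron genes as another, which differed by 1.17. The median change of these 26 neuron genes was smaller, at 0.92. After centring on them, 15 of the 26 were called lower and none higher. Centring on neuron genes thus took away more than the typical neuron gene rose, and calls lost under it are to be read with that limit.

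A large part of the genes tested differed between sterile and fertile females, in both directions. As deposited, 2514 genes (25.2%) were higher and 2851 (28.6%) lower in OvoD1, at an adjusted p below 0.05 in limma and a change of at least 1.5-fold. Centring the arrays on the median of the probe sets tested gave 3436 higher and 2091 lower, and centring on the muscle and photoreceptor genes gave 927 higher (9.30%) and 7037 lower (70.6%). Of those 7037 genes, 1482 lay at the floor on all 6 arrays and were lower by construction. With the neuron genes as reference, 631 were higher and 7618 lower. The falls were larger than the rises. A change of at least 4-fold was reached by 860 lower and 452 higher genes, and one of at least 16-fold by 227 lower and 20 higher genes. All 2851 genes lower as deposited were lower also after centring on muscle and photoreceptor genes. All 927 genes higher after that centring were higher as deposited. Both results were close to fixed in advance, because that centring lowers each difference by 0.91.

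**Figure D1:**
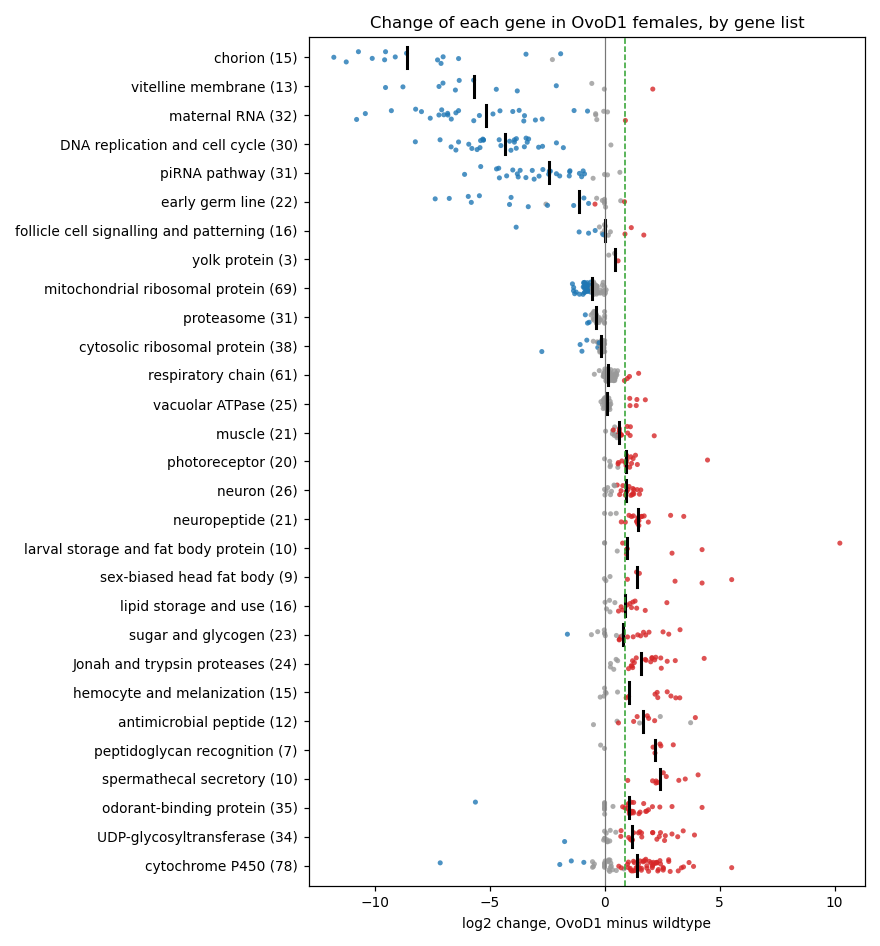
Log2 difference of OvoD1 minus wildtype (horizontal axis) for every tested gene of each list (rows); points are red for genes called higher, blue for genes called lower and grey for genes not called, where the call can rest on another probe set of the gene, the black bar is the median of the list, and the dashed green line marks the muscle and photoreceptor reference at 0.91. The medians of the chorion and vitelline membrane lists lie at -8.61 and -5.69, and those of the neuropeptide and spermathecal lists at 1.43 and 2.43.

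The transcripts of the ovary fell by the most. Across 6 lists of ovary genes, covering the germ line, the piRNA pathway, maternal RNAs, the cell cycle and both eggshell layers, 114 of 138 tested genes fell and 4 rose. Of the 138, 99 fell at least 4-fold and 65 at least 16-fold. Most of the strongest losses were in other genes, and 162 of the 227 genes that fell at least 16-fold were in none of them.

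Of 22 tested genes of the early germ line, 12 fell and 2 rose (Sxl and Rbfox1, both RNA-binding proteins also made outside the ovary, Sxl through another of its probe sets than the one used for its level), with a median of -1.12 beside 0.00 over all genes. The values of bam, the switch by which a stem cell daughter begins to differentiate, were 8.73, 8.51 and 8.67 in wildtype and 2.85, 2.77 and 2.91 in OvoD1, a 55.4-fold fall (adjusted p = 4.72e-10). For otu, an ovarian tumour suppressor, they were 11.68, 11.53 and 11.76 in wildtype and 4.63, 3.69 and 4.57 in OvoD1. The gene c(3)G, which encodes a protein of the meiotic synaptonemal complex, went from 9.15, 9.39 and 9.15 to 3.37, 3.37 and 3.17. In all 3 genes the OvoD1 arrays lay within a few units of the floor and far from the wildtype arrays. The translational regulator orb fell by 6.75 and dhd, a thioredoxin of the egg, by 5.44, yet dhd kept 10.01, 10.17 and 10.60 on the OvoD1 arrays.

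The piRNA pathway silences transposons in the germ line with small RNAs. Of its 31 tested genes 27 fell and none rose, with a median of -2.43. The largest fall was that of rhi, the chromatin protein that marks piRNA source loci, from 8.86, 8.97 and 8.70 to 2.79, 2.71 and 2.77, a 67.9-fold fall. Boot fell by 5.38 and vret, a Tudor domain protein, by 4.70, while zuc, the nuclease that cuts piRNA precursors, had 2.31, 2.38 and 2.38 in OvoD1, at or just above the floor, and was at least 24.3-fold lower. The falls of tej and krimp, both Tudor domain proteins, were 4.57 and 4.26.

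RNAs that the nurse cells load into the oocyte had a median of -5.15 over 32 genes, of which 26 fell and 1, betaTub97EF, rose. The values of osk, which directs the assembly of the germ plasm, were 13.93, 13.87 and 14.04 in wildtype and 2.36, 3.03 and 4.11 in OvoD1, a fall of 10.78 (SE 0.35, adjusted p = 9.84e-09). On 2 of the OvoD1 arrays osk thus lay within 1 unit of the floor, and OvoD1 array 3 was somewhat higher. BicC, an RNA-binding protein that acts on the oocyte axis, had 13.07, 12.98 and 13.08 in wildtype and 2.69, 2.55 and 2.69 in OvoD1. The anterior determinant bcd had 10.50, 10.40 and 10.30 in wildtype and lay at the floor on all 3 OvoD1 arrays, so that it was at least 297-fold lower. Falls of 9.27 in gnu, a subunit of the kinase that starts embryonic divisions, 7.96 in exu, needed for bcd localization, and 7.58 in wisp, the cytoplasmic poly(A) polymerase of the oocyte, were measured with SE of 0.12, 0.07 and 0.09. At the floor on every OvoD1 array were also BigH1, the linker histone of the early embryo, at least 587-fold lower, and CG11674, at least 886-fold lower.

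Genes of DNA replication and cell division fell in nearly every case, with 29 of 30 lower, none higher and a median of -4.32. CycB3, a mitotic and meiotic cyclin, went from 11.61, 11.43 and 11.55 to 2.90, 3.03 and 3.98, a 299-fold fall. The mitotic cyclin CycB had 14.76, 14.46 and 14.61 in wildtype and kept 7.98, 7.85 and 8.61 in OvoD1. The falls of pim, the securin, Orc1, a subunit of the origin recognition complex, fzy, an activator of the anaphase-promoting complex, and Cdc6, a loader of the replicative helicase, were 7.15, 6.67, 6.35 and 5.90.

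Eggshell genes of the follicle cells had the lowest medians of all lists. Of 15 tested chorion genes 14 fell, with a median of -8.61. Their summed level ranged from 16.11 to 16.89 on the wildtype arrays and from 6.57 to 6.84 on the OvoD1 arrays. Cp36, a major early chorion protein, had 13.92, 14.00 and 15.12 in wildtype and 2.49, 2.50 and 2.74 in OvoD1, the largest fall among all genes called with no overlap between the arrays, at 11.77 (SE 0.94, adjusted p = 2.56e-06). Cp15, a late chorion protein, had 14.11, 14.62 and 13.97 in wildtype and 3.03, 2.99 and 2.99 in OvoD1. Both genes thus lay far above the floor in wildtype and within 1 unit of it in OvoD1. Cp38, Cp19, Cp18 and Cp16 fell by 10.70, 10.10, 9.56 and 9.52, and Cp7Fc, at the floor on all OvoD1 arrays, was at least 390-fold lower. The SE of the chorion genes named, from 0.48 to 1.18, were mostly wider than those of the germ line genes above. These SE pool the spread of all 4 genotypes, and in each of these genes the CAKO arrays were the most spread. For Cp15 the standard deviation was 3.01 in CAKO, 0.34 in wildtype and 0.02 in OvoD1. Pxt, a peroxidase needed for egg maturation, had 12.22, 12.22 and 12.25 in wildtype, fell by 9.10 and had an SE of 0.06.

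The vitelline membrane list had 10 of 13 tested genes lower, and a median of -5.69. Vm32E went from 11.65, 11.82 and 12.18 to 2.37, 2.29 and 2.42, and Vm26Aa from 14.03, 14.14 and 14.67 to 5.74, 4.62 and 6.19. Vm34Ca kept more, with 14.42, 14.45 and 14.93 in wildtype and 8.06, 7.68 and 8.62 in OvoD1. In OvoD1 the genes of this layer thus ranged from the neighbourhood of the floor to several units above it. Falls of 7.20 and 7.02 were measured for CG13083, a small protein listed with this layer, and dec, a gene for eggshell assembly. CG13114 ranged from 7.34 to 10.32 in wildtype and was at the floor in OvoD1, at least 79.8-fold lower (adjusted p = 2.98e-03). The single member that rose, Ugt37D1, entered the list by its locus number and is a UDP-glycosyltransferase, not an eggshell protein.

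**Figure D2:**
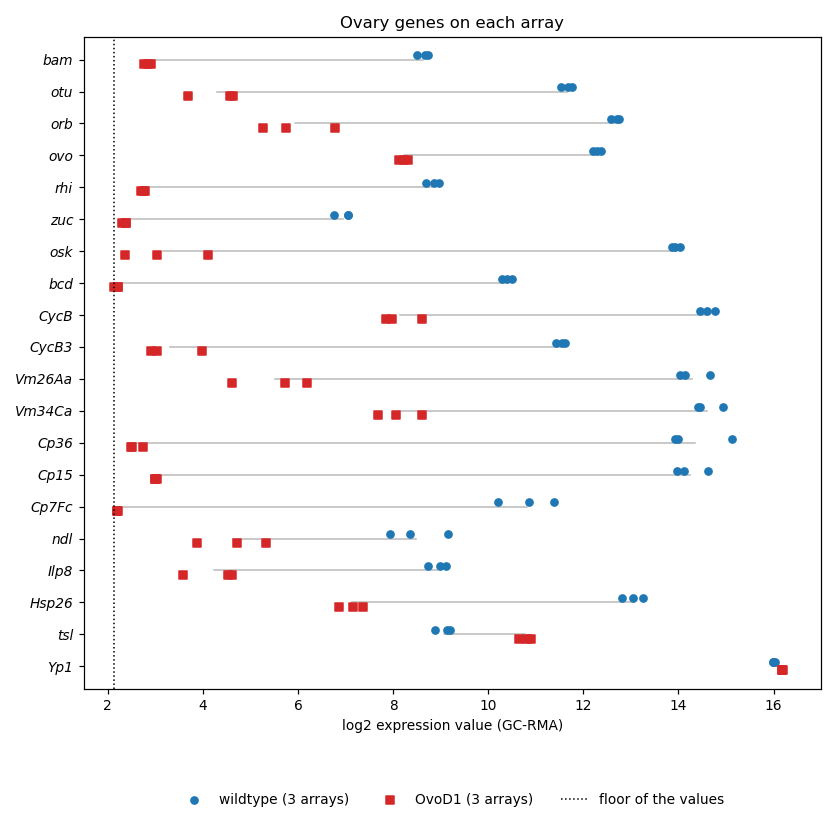
Log2 expression (horizontal axis) of ovary genes (rows) in wildtype (circles) and OvoD1 (squares) females; each point is 1 array, grey lines join the group means, and the dotted line is the floor at 2.13. The OvoD1 points of osk, bcd and the chorion genes lie at or near the floor, and those of ovo, at 8.13 to 8.32, and Vm34Ca, at 7.68 to 8.62, lie well above it.

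Not every gene used by follicle cells was lost. Of 16 genes that follicle cells use to signal and to pattern the egg, 5 fell (31.3%, beside 28.6% of all genes) and 3 rose (18.8%, beside 25.2%), with a median of 0.00, shares near those of all genes. Nudel (ndl), the protease that starts the dorsoventral cascade of the egg, had 7.94, 8.35 and 9.15 in wildtype and 3.87, 5.34 and 4.71 in OvoD1 and fell by 3.84 (SE 0.53). The glycosyltransferase brn fell by 1.10. In contrast, tsl, which follicle cells at both ends of the egg secrete to mark its termini, was higher in OvoD1. It went from 8.89, 9.13 and 9.20 in wildtype to 10.64, 10.81 and 10.90 in OvoD1, a 3.27-fold rise that was 0.80 above the somatic reference and still called after that centring, but not after centring on neuron genes (0.53). The other 2 genes that rose, dpp, a BMP ligand with many roles outside the ovary, and fng, a glycosyltransferase that modifies Notch, rose by 1.16 and 0.89, and neither was called after centring (0.25 and -0.02). Whether the RNA of tsl came from follicle cells was not tested.

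Yolk proteins are made in both fat body and follicle cells, and none of their 3 genes fell as deposited. Yp2 had 14.95, 15.11 and 15.35 in wildtype and 15.76, 15.73 and 15.69 in OvoD1 and rose 1.5-fold. This call was lost when wildtype array 1 or 2 or OvoD1 array 1 was left out. Yp1 and Yp3, named after their values were seen, differed by 0.18 and 0.44 and were below 1.5-fold. Against the muscle and photoreceptor reference the 3 genes stood at -0.73 (Yp1), -0.32 (Yp2) and -0.47 (Yp3). Of these, Yp1 was called lower after that centring, and all 3 were called lower after centring on neuron genes. All 3 Yp1 values of OvoD1, 16.17, 16.17 and 16.20, lay close to each other and just above those of wildtype, 15.98, 15.98 and 16.03.

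Several large falls lay in families that are named for other tissues. Ilp8, a relaxin-like peptide known from follicle cells of mature eggs, went from 9.0, 9.12 and 8.73 to 4.52, 3.59 and 4.61, while no other member of the 10 insulin pathway genes tested fell. The small heat shock proteins Hsp26 and Hsp27, both also made by nurse cells, fell by 5.91 and 5.27, from 13.25, 13.05 and 12.81 to 7.37, 6.87 and 7.17 for Hsp26. RpS5b, the germ line paralog of a ribosomal protein, fell by 2.73, from 15.10, 15.18 and 15.05 to 12.24, 12.36 and 12.55, while the 38 cytosolic ribosomal protein genes had a median of -0.13. Of these 6 fell (15.8%, beside 28.6% of all genes) and none rose. Among the 6 were RpL24-like, RpL7-like and RpLP0-like, relatives of ribosomal proteins. RpL3 and RpS30 were others, each through another of its probe sets than the one used for its level. Among cytochrome P450 genes 4 of 78 fell (5.1%), Cyp6a19 by 7.14 and Cyp6v1, Cyp6a17 and Cyp6a22 by 1.95, 1.45 and 0.90. The odorant-binding protein gene Obp19c had 8.66, 8.05 and 9.44 in wildtype and 3.11, 3.08 and 3.11 in OvoD1, the one loss among 35 tested genes of its family. Of the Osiris family, membrane proteins of cuticle-forming epithelia, 12 genes were tested and 4 fell, 33.3% beside 28.6% of all genes, a count that was 2 without wildtype array 1 or 3 or without any one OvoD1 array. Osi6 had 10.09, 9.27 and 10.91 in wildtype and 2.13 on all 3 OvoD1 arrays, at least 248-fold lower, and Osi15 was at least 42.6-fold lower. For Osi20 and Osi19 wildtype array 2 and all OvoD1 arrays lay at the floor, so the groups overlapped.

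In 39 genes 1 probe set was called higher and another lower, and these genes were left out of both counts. All 39 had both signs also in CAKO;OvoD1 against CAKO. The genes given here, the few with the widest gaps and known isoforms, were chosen after their values were seen. Of the 15 probe sets of lola, a BTB transcription factor with many alternatively spliced forms, the lowest went from 13.10, 12.92 and 13.02 to 7.25, 6.85 and 7.55 and the highest from 8.73, 8.54 and 8.75 to 9.79, 9.66 and 9.75. One probe set of hts, the adducin gene that also makes a ring canal protein of nurse cells, fell by 4.41 (SE 0.17) and another rose by 0.74 (SE 0.11). For Mical, an enzyme that takes apart actin filaments, the difference was -6.34 for one probe set, with OvoD1 array 1 at the floor, and 0.68 for the other. The rises of these 3 genes lay between 0.68 and 1.06, close to the somatic reference of 0.91. Rises further above the reference also occurred among the 39 genes. The largest was that of CG3857, where the lower probe set fell by 0.59 and the higher rose by 3.70.

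**Figure D3:**
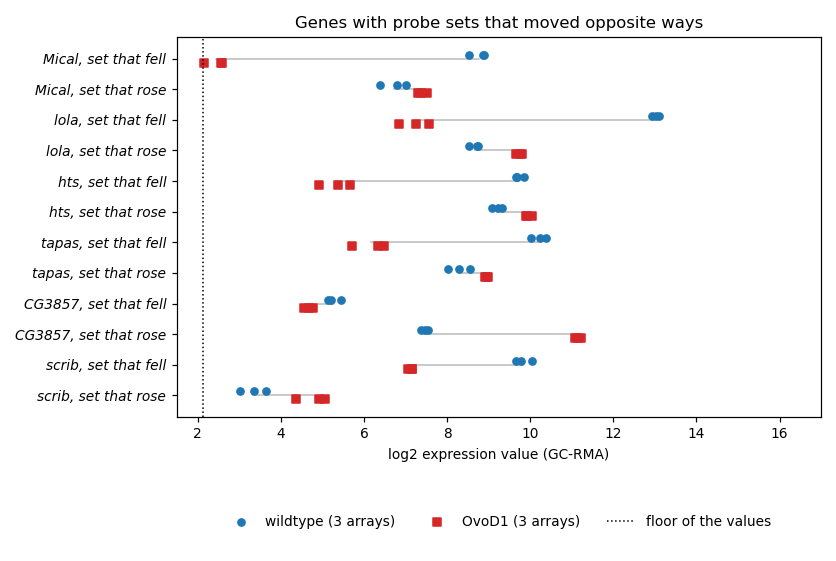
Log2 expression (horizontal axis) for the probe sets that fell and rose the most within the same gene (rows, 6 genes); circles are wildtype arrays, squares OvoD1 arrays, grey lines join the group means and the dotted line is the floor at 2.13. The set of lola that fell lies at 6.85 to 7.55 in OvoD1 and the one that rose at 9.66 to 9.79.

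Many somatic genes rose, and a large part of these rises stood near the somatic reference. The muscle and photoreceptor genes define that reference, so their nearness to it and their lost calls after that centring were largely fixed in advance. As a background for the counts below, 25.2% of all genes were higher and 28.6% lower. Of 21 muscle genes 13 rose and none fell, with a median of 0.64, of 20 photoreceptor genes 15 rose and none fell, with a median of 0.94, and of 26 neuron genes 18 rose and none fell, with a median of 0.92. The giant muscle protein gene sls had 9.50, 9.37 and 9.83 in wildtype and 10.72, 10.70 and 10.66 in OvoD1. Its rise of 1.12 shrank to 0.21 after centring on muscle and photoreceptor genes together and was no longer called. The same held for fln, a protein of flight muscle thick filaments, at 0.21. The median of the muscle genes alone, 0.64, lay below the joint reference of 0.91, so that centring took away more than the typical muscle gene rose. Only 1 gene of each of these 2 reference lists remained higher after that centring, and these were Act88F, the actin of indirect flight muscle, at 1.25, and ninaD, a scavenger receptor for carotenoid uptake, at 3.57. The values of ninaD were 6.0, 6.68 and 6.03 in wildtype and 10.56, 10.61 and 10.97 in OvoD1, a 22.3-fold rise. Of 9968 genes, 1448 that were higher as deposited were not called after centring on muscle and photoreceptor genes, and 139 were then called lower.

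Genes for neuropeptides, the signals released by neurons and gut endocrine cells, were among those higher in OvoD1. Of 21 tested, 18 rose and none fell, with a median of 1.43. After centring on muscle and photoreceptor genes 7 were higher and 2 lower, and after centring on neuron genes 3 were higher and 3 lower. Akh, the adipokinetic hormone that mobilises stored fat and sugar, had 5.85, 5.88 and 6.04 in wildtype and 9.44, 9.26 and 9.40 in OvoD1, a 10.9-fold rise (adjusted p = 9.65e-09). CCHa2, a nutrient-responsive peptide of gut and fat body, rose 7.32-fold, from 9.20, 9.42 and 9.26 to 12.09, 12.15 and 12.25. Both genes kept rises of at least 1.96 above the reference. Capa, Dh31 and Nplp1, peptides of brain and gut, rose by 1.90, 1.72 and 1.62, and the last 2 of these lost their call after centring on neuron genes (0.55 and 0.45). Of 10 insulin pathway genes tested, 3 rose (30%, beside 25.2% of all genes) and 1 fell, with a median of 0.16. Among the 3 were Ilp5 and Ilp2, insulin-like peptides of the brain. Ilp5 had 2.37, 2.80 and 2.80 in wildtype, near the floor, and 7.84, 7.79 and 8.05 in OvoD1, a 37.7-fold rise, and Ilp2 rose 6.16-fold. ImpL2, a secreted protein that binds insulin-like peptides, rose by 0.70, less than the reference.

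With the corpora allata intact, 5 of 12 juvenile hormone genes (41.7%, beside 25.2% of all genes) rose and 2 (16.7%, beside 28.6%) fell. After centring on muscle and photoreceptor genes 2 were higher and 8 lower. Among those not called then was tai, a partner of the hormone receptor, which stood at -0.08. The wildtype arrays had 4.61, 4.71 and 4.64 for jhamt, a late enzyme of juvenile hormone synthesis, and the OvoD1 arrays 6.72, 6.67 and 6.56, a 3.98-fold rise that remained called at 1.08 above the reference. JhI-26, a gene named for its induction by the hormone, rose by 2.12, and JhI-21, an amino acid transporter named likewise, fell by 2.04 (SE 0.02), from 11.02, 11.01 and 11.01 to 8.98, 8.96 and 8.97. The groups of these 3 genes were far apart and JhI-21 had the tightest values. Jhedup, a relative of juvenile hormone esterase, rose by 1.53 and was not called after centring.

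Proteins of the fat body included the largest rise of all. Lsp2, a storage protein known best from larvae, had 4.34, 4.05 and 3.14 in wildtype and 14.09, 14.16 and 13.95 in OvoD1, a rise of 10.23 (SE 0.30, adjusted p = 5.54e-09). No wildtype array came within 9 units of any OvoD1 array. Of the 10 tested genes of its list 7 rose and none fell, with a median of 0.96. Of 9 sex-biased genes known from the fat body of the head, measured here in whole females, 6 rose and none fell, with a median of 1.39. After centring on muscle and photoreceptor genes 5 were higher and 3 lower. The female-biased gene fit had 10.75, 11.36 and 11.36 in wildtype and 14.21, 14.33 and 14.14 in OvoD1. Cyp4d21, a male-biased P450 of that tissue, had 2.30, 2.35 and 2.39 in wildtype, at or near the floor, and 7.86, 8.13 and 7.63 in OvoD1, at least 46.2-fold higher. Genes biased to either sex were thus higher in OvoD1. Obp99b, also male-biased, rose 18.9-fold, Obp99a rose 7.64-fold, and dsx, the transcription factor of sexual differentiation, rose 2.62-fold. Of 8 tested male tract genes 5 lay at the floor, 1, Mst84Dc, rose by 0.64, and the median was 0.02.

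Genes of lipid and sugar metabolism were mostly higher as deposited. Of 16 lipid genes 11 rose and none fell (median 0.88), and of 23 sugar genes 14 rose and 1, the transporter gene sut1, fell (median 0.79). The gut lipase gene mag rose 6.54-fold, from 9.93, 10.42 and 9.75 to 12.47, 12.79 and 12.97, and Lip4, an acid lipase, rose 3.41-fold. The Akh receptor, AkhR, rose 2.51-fold and Lpin, a phosphatase of lipid synthesis, 2.63-fold. Mal-A4 and Mal-A3, maltases of the midgut, rose 9.73-fold and 6.92-fold. After centring on muscle and photoreceptor genes, 3 lipid genes were higher and 4 lower, and 7 sugar genes higher and 8 lower. Among those still higher were tobi, a glucosidase under insulin and Akh control, at 1.63, and Pepck1, an enzyme of gluconeogenesis, at 0.79, which was no longer called after centring on neuron genes (0.52).

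Digestive proteases rose in most members of the family, with 19 of 24 Jonah and trypsin genes higher, none lower and a median of 1.57. After centring on muscle and photoreceptor genes, 12 were higher and 2 lower. Jon66Cii had 3.25, 4.43 and 4.43 in wildtype and 8.55, 8.40 and 8.16 in OvoD1, a 20.1-fold rise. Jon99Ci, already at 11.14, 11.88 and 11.22 in wildtype, rose to 14.13, 14.20 and 14.07. The OvoD1 arrays thus lay close to each other, and the wildtype arrays were further apart. Jon25Bi rose by 3.08, and Jon25Bii by 2.47, a call that was lost when any of several single arrays was left out (1.93 to 2.55).

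All 10 tested genes for secreted proteins of the spermathecae, the organs in which females store sperm, rose, with a median of 2.43, and 9 stayed higher after centring. Send1, a spermathecal endopeptidase, had 9.12, 9.29 and 9.55 in wildtype and 12.08, 11.62 and 11.93 in OvoD1, a 5.88-fold rise. Ser12, a serine protease, had 3.75, 5.69 and 6.98 in wildtype and 9.57, 9.04 and 10.01 in OvoD1. CG17234 and Send2 lay at the floor on all wildtype arrays and were at least 11.4-fold and at least 9.38-fold higher. The call of Send2 was lost without OvoD1 array 3, where the difference was 2.93 (adjusted p = 0.0547). The standard deviation of Send2 was 2.43 in CAKO;OvoD1, 0.63 in OvoD1 and 0.04 in wildtype, and the model pools the spread of all genotypes.

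Genes of immune defence were higher in part. Of 12 antimicrobial peptides 7 rose and none fell (median 1.69), of 7 peptidoglycan recognition proteins 5 rose and none fell (median 2.19), and of 15 genes of blood cells and melanization 9 rose and none fell (median 1.05). Mtk, a peptide against bacteria and fungi, had 12.75, 7.39 and 8.35 in wildtype and 14.06, 13.17 and 13.10 in OvoD1. Wildtype array 1 thus lay much nearer to the OvoD1 arrays than the other 2 did, and the same array was highest for PGRP-SB1, at 10.83 beside 8.26 and 8.67. The rise of Mtk was 3.95 (adjusted p = 0.0148) and lost its call without wildtype array 2 (2.89, adjusted p = 0.053) or 3 (3.38, adjusted p = 0.056). The count of antimicrobial peptides fell from 7 to 4 without wildtype array 2. Def, a defensin, rose by 2.18, and Drsl4, a relative of drosomycin, by 1.92.

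Other recognition and blood cell genes had tighter values. PGRP-LB, an enzyme that breaks down peptidoglycan, had 6.77, 6.66 and 6.89 in wildtype and 9.24, 9.26 and 9.17 in OvoD1, and PGRP-SC2, a related enzyme, rose 5.31-fold. PGRP-LF and PGRP-LA, both membrane-bound members, rose by 2.19 (SE 0.10) and 2.11 (SE 0.06). Eater (eater), a phagocytosis receptor of blood cells, had 2.88, 2.46 and 3.15 in wildtype and 6.05, 6.34 and 5.93 in OvoD1, a 9.65-fold rise. NimC1, a marker of plasmatocytes, rose 7.39-fold, PPO1, the prophenoloxidase of crystal cells, rose 8.56-fold, and Sr-CI, a scavenger receptor, 6.61-fold. After centring on muscle and photoreceptor genes 5 peptidoglycan recognition genes were higher and 2 lower, 7 blood cell genes higher and 5 lower, and 3 antimicrobial peptides higher and 1 lower.

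Detoxification families were mostly higher as deposited and divided after centring. Of 78 cytochrome P450 genes 52 rose (median 1.40), and after centring on muscle and photoreceptor genes 37 were higher and 23 lower. Of 33 glutathione S-transferases 20 rose and 6, led by GstD3 and GstO1, fell (median 0.79), and after centring 9 were higher and 14 lower. Of 34 UDP-glycosyltransferases 22 rose and 1, Ugt316A1, fell (median 1.20), and after centring 14 were higher and 11 lower. Cyp309a1 had 5.49, 5.66 and 4.67 in wildtype and 9.35, 8.97 and 9.11 in OvoD1, a 14.6-fold rise, and GstD10 went from 3.33, 3.32 and 3.37 to 7.31, 6.98 and 7.12, a 13.9-fold rise. Ugt37A3, Cyp4e3 and Cyp6a18 rose by 3.91, 3.67 and 3.43. In each of these genes the lowest OvoD1 array was above the highest wildtype array by several units. Of 35 odorant-binding protein genes 25 rose, and after centring 10 were higher and 9 lower. Among antioxidant genes the median was 0.28, with 6 of 14 higher and 1 (Sod3) lower, among them the peroxiredoxin gene Prx6c, which rose 13.6-fold, and Cat, the catalase gene, which rose 2.24-fold and was not called after centring. Turandot and heat shock genes were called in shares near those of all genes. Of 10 tested, 2 (20%, beside 25.2%) rose, TotC, a stress-induced secreted protein, by 2.99 and Hsp68 by 1.09, and 3 (30%, beside 28.6%) fell, Hsp26, Hsp27 and Hsp60A, the last, a mitochondrial chaperone, by 1.48.

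**Figure D4:**
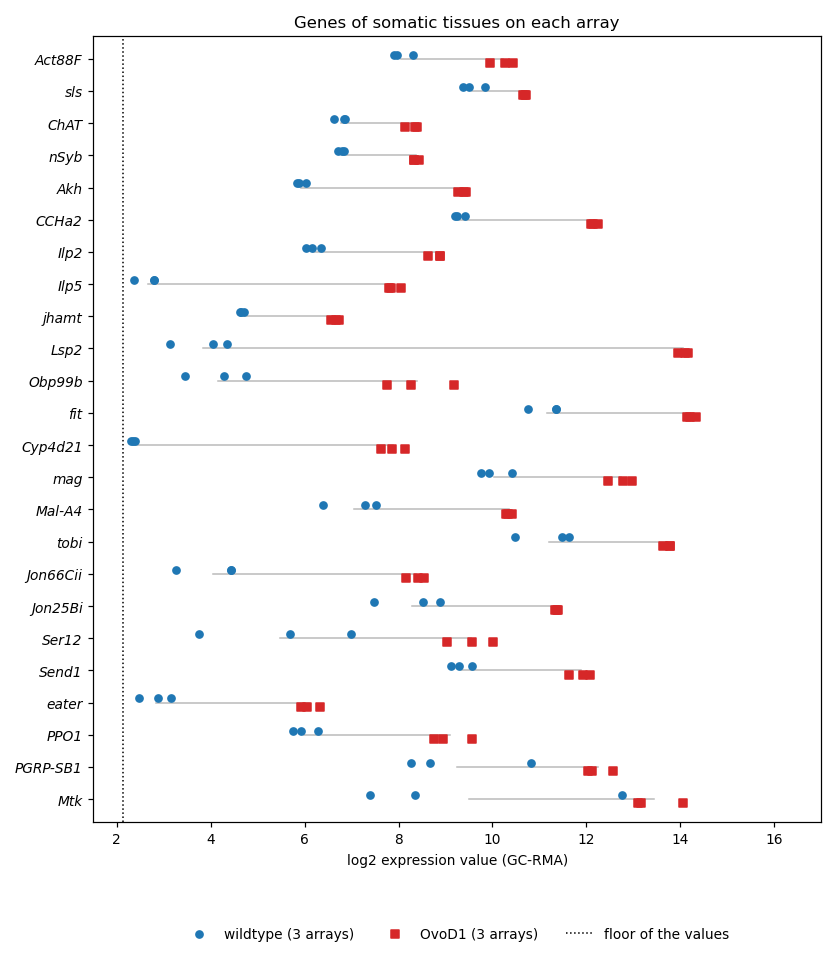
Log2 expression (horizontal axis) of genes of somatic tissues (rows) in wildtype (circles) and OvoD1 (squares) females; each point is 1 array, grey lines join the group means and the dotted line is the floor at 2.13. Lsp2 spans the widest range, from 3.14 to 4.34 in wildtype to 13.95 to 14.16 in OvoD1, and 1 wildtype array of Mtk, at 12.75, lies near the OvoD1 arrays.

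Among the largest rises were genes in none of these lists. LManIII, a lysosomal mannosidase, had 4.47, 3.14 and 2.17 in wildtype and 9.56, 9.23 and 9.57 in OvoD1. With wildtype array 3 at the floor, it was at least 73.1-fold higher. CG13078 lay at the floor on all 3 wildtype arrays and at 6.89, 8.71 and 8.48 in OvoD1, at least 59.3-fold higher. CG34040, CG43085, CG13311 and CG15254 rose by 5.61, 5.37, 5.15 and 5.11. The rule that chose these genes required no overlap between the arrays, which held for 7370 of the 9968 genes tested. Over all genes, 40 that rose lay at the floor on every wildtype array, and 70 that fell lay at the floor on every OvoD1 array.

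Genes that all cells need were also listed, by complex. The 61 genes of the respiratory chain had a median of 0.17, with 4 higher (6.6%, beside 25.2% of all genes) and none lower. Those 4 were UQCR-11L, UQCR-11, ND-B8 and COX7AL2. The 25 vacuolar ATPase genes, subunits of a proton pump, had a median of 0.11, with 5 higher (20%) and none lower. The 5 were Vha100-4, VhaAC45RP, VhaM9.7-a, Vha36-3 and Vha100-5. Of 69 mitochondrial ribosomal protein genes 33 fell (47.8%, beside 28.6% of all genes) and none rose, with a median of -0.54. Of 31 proteasome genes 3 fell (9.7%), Rpn5, Rpn2 and Rpn11, with a median of -0.35. All of these medians lay below the somatic reference. Of 68 cuticle protein genes 9 rose (13.2%) and 8 fell (11.8%), with a median of 0.00, both shares below those of all genes. Of these 68, 43 lay at the floor on all OvoD1 arrays and 31 on all wildtype arrays. Over all 9968 genes these counts were 1636 and 1723, so many cuticle genes could not be measured. Among those called, Lcp65Ag3 fell the most, by 6.73, and Cpr60D rose the most, by 2.80.

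The females without corpora allata gave a parallel comparison on 6 other arrays, with CAKO females, whose egg production is reduced, as the fertile group. In CAKO;OvoD1 against CAKO 2559 genes (25.7%) were higher and 2650 (26.6%) lower. Of the genes higher with intact corpora allata 2269 were higher here too, which is 90.3% of the first list and 88.7% of the second. Of the lower genes 2541 were shared, 89.1% and 95.9%. In 2 genes the calls were opposite. Across genes, which are not independent replicates, the log2 differences of both comparisons had a Pearson correlation of 0.95 and a Spearman correlation of 0.96. The muscle and photoreceptor genes differed by 1.12 in this pair, beside 0.91 with the glands intact.

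**Figure D5:**
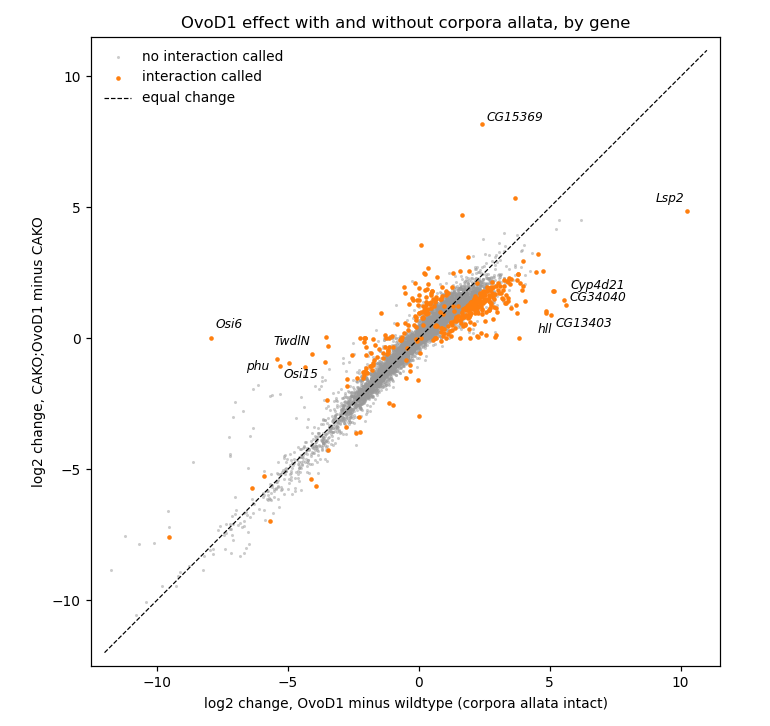
Log2 difference of CAKO;OvoD1 minus CAKO (vertical axis) against that of OvoD1 minus wildtype (horizontal axis) for each tested gene; orange points are genes with a different response in the 2 comparisons by the interaction term, and the dashed diagonal marks equal differences. Osi6 lies at -7.95 and 0.00, Lsp2 at 10.23 and 4.86.

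The response to OvoD1 differed with the corpora allata in 377 genes (3.78%), by the interaction term of the same model. The interaction was positive in 233 of them and negative in 144. Lsp2 rose by 10.23 with the glands and by 4.86 without them, a difference of 5.37 (adjusted p = 0.0004). Its values were 8.06, 8.50 and 8.04 in CAKO and 13.08, 13.43 and 12.66 in CAKO;OvoD1, beside at most 4.34 in wildtype and at least 13.95 in OvoD1. CG34040 had 11.57, 10.89 and 11.40 in CAKO and 12.49, 12.50 and 12.72 in CAKO;OvoD1, beside 10.62, 10.30 and 9.94 in OvoD1, so that its OvoD1 arrays lay below all CAKO arrays. In both genes every CAKO array lay above every wildtype array. Akh and CCHa2 rose by 1.12 and 1.37 more with the glands.

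Cyp4d21 and CG13403 differed between the sterile groups instead. In CAKO;OvoD1, Cyp4d21 had 3.55, 3.31 and 4.35, against at least 7.63 in OvoD1, while both fertile genotypes lay between 2.19 and 2.39, near the floor. CG13403 likewise had 3.34, 3.42 and 3.38 in CAKO;OvoD1 and at least 7.25 in OvoD1. Of the genes that fell, Osi6 lay at 2.13 on all CAKO and CAKO;OvoD1 arrays as on all OvoD1 arrays, so that no response without the glands could be measured for it. Osi15 lay at the floor on the same arrays except 1 CAKO array, at 4.45, and its interaction lost its call with array weights (adjusted p = 0.0769). Vm32E was lower in CAKO, at 9.21, 10.62 and 10.07, than in wildtype, and was at or near the floor in both sterile genotypes. CG15369 went the other way, with 10.53, 11.36 and 10.32 in CAKO;OvoD1 and 6.63, 3.90 and 3.49 in OvoD1, from at most 2.73 in both fertile genotypes. The interactions of phu (-4.22) and TwdlN (-4.02) were lost when most single arrays were left out. The chorion genes had wide values in CAKO, from 9.85 to 14.10 for Cp36, and their interactions were not called, with adjusted p = 0.29 for Cp36 and a difference of -2.94.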

How the data were processed

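Whole-female RNA was hybridised to Affymetrix Drosophila 2.0 arrays, 3 per genotype. The authors quantile normalized the arrays and processed them with GC-RMA, and the deposited values are log2 expression per probe set. GC-RMA was also named in the submitters' processing notes, with no version. Both the methods and the design text call the 3 arrays of a genotype biological replicates, and whether each came from a cage of its own is not given in the sources used here. The number of arrays limits the precision. The members and gene lists were chosen with earlier results of these data known.

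The platform annotation gives 1 gene for 13647 of 18952 probe sets, several for 402 and none for 4903; no symbol needed an update. The methods excluded probe sets of low mean, by first quartile within a genotype. Here a probe set was dropped only if its mean fell in the lowest 25% of each of the 4 genotypes (5081). In at least 1 genotype 7255 were that low. The 183 controls were dropped too, which left 13777. Of the 9968 genes tested, 1483 lay at the floor on all wildtype and OvoD1 arrays. One limma model (version 3.58.1, R 4.3.3, lmFit and eBayes with a trend) was fitted to all 12 arrays, with 8 residual degrees of freedom and contrasts of OvoD1 minus wildtype, CAKO;OvoD1 minus CAKO and their difference, the interaction. Benjamini-Hochberg adjustment ran across the 13777. A gene was called at an adjusted p below 0.05 and 1.5-fold in at least 1 probe set and none the other way, and its values were printed from its probe set with the highest mean. With 3 arrays against 3, a two-sided exact permutation test cannot go below 0.1, so none is given. The floor is the lowest value, 2.13, and a probe set within 0.2 of it was at the floor; a fold against a group at the floor is given as a bound from the measured values.

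Gene lists (28 by symbol, 11 by family name) are described by counts and medians only. Named genes were the 15 largest rises and falls with no overlap between arrays, up to 6 called members of each list, the stock markers and the 5 largest interactions each way, with fewer given here; of the stock markers y and f lay at the floor on all arrays. Others are said to be chosen after their values were seen. Alternatives were a fit of the 6 arrays alone, the methods' t-test, other filters and fold thresholds, 1 probe set per gene, 3 centrings, array weights, a replicate block and leaving out each array. Centring subtracted from each array its median over the reference genes. The model was checked on simulated arrays.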

Additional observations from a re-analysis of the deposited data

Results flagged for a closer look

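The response to OvoD1 differed between females with and without corpora allata in 377 genes, tested by the interaction term of the limma model at an adjusted p below 0.05 and a difference of at least 1.5-fold. Each value below is the log2 response with the glands minus that without them.

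Among genes of the ovary and eggshell the interaction was -0.66 for c(3)G, 1.23 for zpg, the germ line innexin, -1.94 for Vm32E, 0.59 for tsl and -0.65 for pip, an enzyme of dorsoventral patterning. The fitted values of the Osiris genes Osi6 and Osi15 were -7.95 and -4.64 and that of the cuticle protein gene TwdlN was -4.02, and phu had -4.22. For Osi6 and pip all CAKO arrays lay at the floor, and for Osi15 and TwdlN most of them, so a response without the glands could not be fully measured, and the fitted value is not the size of a difference in response. At or near the floor in at least 1 group were also Vm32E, Cyp4d21, CG13403 and CG15369. Among genes of hormones and their targets it was 1.12 for Akh, 1.37 for CCHa2 and 0.76 for JhI-26.

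Of the genes named in this report, those of fat body and metabolism were positive. They had 5.37 for Lsp2, 4.05 for Cyp4d21, 1.32 for mag, 1.23 for Lip4, 1.88 for tobi and 1.24 for Pepck1. The gene ninaD of the photoreceptor list was positive too, at 1.96. So were the protease gene CG32277 of the spermathecal list, at 1.13, the immune genes Drsl4, PGRP-LF, PGRP-LA and Sr-CI, at 1.02, 0.84, 0.62 and 0.86, and Prx6c, Cyp309a1 and GstD10, at 1.54, 1.75 and 1.35. Of the largest rises in no list, CG34040 had 4.33, CG13311 3.35, CG15254 3.29, CG13403 4.15, hll 3.90, CG9616 3.80, CG17751 2.18 and CG3513 1.35. CG15369 had -5.78, the largest negative value outside the Osiris genes.

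Probe sets annotated to no gene also differed between OvoD1 and wildtype. Of 2382 tested, 225 were higher and 233 lower, and they enter no count of genes.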

How the results depend on the processing

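The counts of 2514 higher and 2851 lower genes stayed within 1.5 times under the fit of 6 arrays (2450 and 2816), the methods' t-test unadjusted (2456 and 2819) and after Benjamini-Hochberg (2394 and 2795), no filter (2499 and 2841) and array weights (2507 and 2827). Without 1 array, genes higher ranged from 2438 to 2513, lower from 2807 to 2851, higher in both comparisons from 2210 to 2276, lower in both from 2504 to 2548 and with an interaction from 257 to 363. Interactions numbered 645 without a fold threshold, and at 2-fold they numbered 189 with 1502 genes higher in both. Centring on muscle and photoreceptor genes gave 927 higher, 7037 lower, 365 higher in both, 6906 lower in both and 789 interactions; on neuron genes these were 631, 7618, 188, 7483 and 610. After the first, fng (-0.021), Yp1 (-0.73), Yp2 (-0.32) and ImpL2 (-0.21) were below 0, and after the second dpp (-0.011), fng (-0.29), Yp1 (-0.99), Yp2 (-0.58), Yp3 (-0.74), sls (-0.050), fln (-0.060), ImpL2 (-0.47) and Cat (-0.0082). Same-numbered wildtype and OvoD1 arrays deviated together with correlations of 0.08, -0.03 and 0.05, so the numbers were not taken as pairs; the replicate block gave 2501 higher, 2848 lower, 2254 and 2541 in both and 324 interactions. Of 135 genes followed, 108 kept their call under every setting, 11 kept their direction but lost it after the first centring and 14 after the second, besides those named below 0, and 4 lost it when some array was left out. List counts moved by over 1.5 times in 57 and 58 cases under these centrings, 19 at 2-fold and 17 with no fold threshold. CG15369 lost its call in the fit of 6 arrays (adjusted p = 0.0782), as did Mtk (0.0854). GC-RMA gives no order below the floor.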

Other observations

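Genes of the X chromosome were higher in 21.5% and lower in 33.6% of cases in OvoD1, beside 26.6% and 27.6% on 2L, 28.3% and 27.3% on 2R, 22.4% and 28.2% on 3L and 26.1% and 28.0% on 3R. On chromosome 4, 44.6% of 65 tested genes were higher and 20% lower. These shares were not tested.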
